A study of Mus musculus with 2 samples.

Results

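The let-7 family is taken here as the mouse microRNA (miRNA) hairpin genes whose symbols start with Mirlet7, together with Mir98, which carries the same seed. Members were taken by symbol, but the family was chosen with earlier results of these data known. GENCODE M21 annotates 12 such loci, and the deposited files list 10 of them among 1973 miRNA genes. Mirlet7e and Mirlet7f-1 are not listed, and were read from the opposite-strand counts at Gm25927 and Gm24111, the listed genes that lie across from them. Small RNA was sequenced from limb tissue of B6NCrl mouse embryos at 11.5 days, of both sexes pooled and labelled healthy. There were 2 libraries of this 1 group, from 109 embryos (replicate 1) and 88 embryos (replicate 2). Both libraries carry one donor identifier, and no allele, treatment or other age is given, so every comparison below is between genes or between these 2 libraries, and p-values set a difference between the libraries, which may be technical, against counting error.

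MiRNAs are short RNAs cut from hairpin precursors, and each guides repression of messenger RNAs that pair with its seed, the bases near its 5′ end. Let-7 is a heterochronic miRNA, first known as a timer of larval cell fates in the nematode. In vertebrate embryos its mature form accumulates as cells leave the progenitor state, and its targets include Hmga2, Trim71 and the Lin28 genes. Lin28 proteins in turn bind the terminal loop of let-7 precursors, where a GGAG motif is one contact, and block their maturation. Messenger RNAs were not measured here, so neither Lin28 nor any target has a value in these data.

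The 12 loci encode 9 distinct 5′ mature sequences, the arm that carries the family's seed. They are shown because the loci with few counts are mostly those whose sequence occurs at more than 1 locus. The sequences are those of RefSeq on GRCm38.p6, 5′ to 3′, with the seed (bases 2 to 8) in capitals.
let-7a-5p, from Mirlet7a-1 and Mirlet7a-2: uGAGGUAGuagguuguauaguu
let-7f-5p, from Mirlet7f-1 and Mirlet7f-2: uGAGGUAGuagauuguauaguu
let-7c-5p, from Mirlet7c-1 and Mirlet7c-2: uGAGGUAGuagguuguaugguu
let-7b-5p, from Mirlet7b: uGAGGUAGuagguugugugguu
let-7d-5p, from Mirlet7d: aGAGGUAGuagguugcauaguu
let-7e-5p, from Mirlet7e: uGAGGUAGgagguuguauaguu
let-7g-5p, from Mirlet7g: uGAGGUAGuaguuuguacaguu
let-7i-5p, from Mirlet7i: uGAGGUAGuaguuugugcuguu
miR-98-5p, from Mir98: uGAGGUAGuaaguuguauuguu

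All 9 are 22 nt long and share the seed. Substitutions are given with the base of let-7a-5p first, the position counted from 1 at the 5′ end, and then the base of the other miRNA. Let-7e-5p differs from let-7a-5p by U9G alone, let-7f-5p by G12A alone and let-7c-5p by A19G alone. Let-7b-5p carries A17G and A19G, and miR-98-5p carries G11A and A19U. Let-7g-5p carries G12U and U18C, and let-7i-5p carries those of let-7g-5p plus A17G and A19U. Let-7d-5p carries U1A and U16C, and is the 1 sequence of the 9 with a first base other than U. Every difference but U1A lies 3′ of the seed.

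The libraries held 2953085 sense counts in replicate 1 and 3459176 in replicate 2. Multimapping reads, 1644176 and 1738400, are in no gene's count and were 23.1 and 24.7 times as many as the family's counts; the files do not record which genes they belong to. All 6 limb bud markers (the Hox-cluster miRNAs Mir10a, Mir10b, Mir196a-1, Mir196a-2, Mir196b and Mir615) were detected at 10 CPM (counts per 1000000 sense counts) or more in both libraries, with summed levels of 130212 and 127459 CPM. Epithelial markers, all 10 detected, summed to 18079 and 21153 CPM, and the endothelial marker Mir126a stood at 24254 and 24135 CPM. Erythroid, skeletal muscle and neuronal markers each summed to between 205 and 576 CPM, without Mir1a-2 and Mir9-1, which are not listed. White blood cell markers summed to 660 and 725 CPM without Mir142, which is not listed either. With the opposite-strand counts at Mir142b, which lies across from Mir142, that sum was 1288 and 1297 CPM, a reading added after the values were seen. Mir1a-1, Mir133a-1, Mir133a-2, Mir124a-1, Mir124a-2, Mir124a-3 and Mir9-2 were at 0 sense counts in both libraries, but each shares 9 to 30 stretches of 20 nt with another hairpin, so these zeros do not show that the miRNAs were absent.

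Most let-7 reads that were assigned to a single locus came from 3 genes, Mirlet7g, Mirlet7i and Mirlet7e. The 10 listed members held 2.41% of sense counts in replicate 1 (71195 counts, Wilson 95% interval 2.39 to 2.43%) and 2.04% in replicate 2 (70450 counts, 2.02 to 2.05%). With Mirlet7e and Mirlet7f-1 added to both the family and the total, the 12 loci held 2.91% and 2.52%. These intervals hold counting error alone, as reads copied by PCR are not separate molecules. In bulk tissue, fewer cells that express a miRNA and less of it per cell cannot be told apart.

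Mirlet7g (ENSMUSG00000065440.1), an intronic hairpin of Wdr82 (chromosome 9, 106178840 to 106178927), had 36402 counts in replicate 1 and 38206 in replicate 2. That is 12327 and 11045 CPM, or rank 20 among all listed genes in both libraries. Mirlet7i (ENSMUSG00000065406.2), is exonic to D630033A02Rik, a transcribed pseudogene (chromosome 10, 122985640 to 122985724). It had 26937 and 24866 counts, or 9122 and 7188 CPM, at ranks 25 and 29. Mirlet7g and Mirlet7i together made up 89.0% and 89.5% of the counts of the listed members. Both hairpins stand alone among listed miRNA genes within 60 kb on their strand, apart from Mir135a-1 near Mirlet7g, which had 10 and 13 counts.

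Mirlet7e, an intronic hairpin of Spaca6 (chromosome 17, 17830352 to 17830444), had 15171 and 16987 counts, or 5137 and 4911 CPM. Its count of assigned reads was thus the third highest of the 12 loci, although no listed gene bears its name. Mirlet7d (ENSMUSG00000065453.1), which overlaps an exon of the long noncoding RNA gene 6720427I07Rik (chromosome 13, 48536012 to 48536114), had 4406 and 4137 counts, or 1492 and 1196 CPM. Mir98 (ENSMUSG00000065536.2), in an intron of the ubiquitin ligase gene Huwe1 (chromosome X, 151913214 to 151913321), had 2393 and 2271 counts, or 810 and 657 CPM. No library of any of these 5 genes overlapped in level with a library of the next.

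The other 7 loci lay at or below 125 CPM in both libraries. Mirlet7f-2, also intronic to Huwe1 (chromosome X, 151912346 to 151912428) and 785 nt upstream of Mir98, had 368 and 354 counts. Mirlet7b, which overlaps an exon of Lncppara (chromosome 15, 85707319 to 85707403), had 303 and 257. Their levels, 125 and 102 CPM for Mirlet7f-2 and 103 and 74.3 CPM for Mirlet7b, overlapped between the libraries. Within each library Mirlet7f-2 was the higher, and this order was not tested. Mirlet7a-2 (chromosome 9, 41536716 to 41536811), with 150 and 143 counts, and Mirlet7c-1 (chromosome 16, 77599657 to 77599750), with 144 and 135, overlapped likewise. Mirlet7a-1 (chromosome 13, 48538179 to 48538272) followed with 83 and 71 counts. Mirlet7f-1, nearby on that chromosome (48537829 to 48537917), had 47 and 33. Mirlet7c-2, close to Mirlet7b on chromosome 15 (85706603 to 85706697), had 9 and 10. Mirlet7c-2, at 3.05 and 2.89 CPM, was the 1 listed member under the detection level, and still above the 1.02 and 0.867 CPM that 3 counts, the limit allowed by a count of 0, represent in the libraries. Counts were not divided by hairpin length, since the labels give inserts under 30 nt and a read thus covers about 1 mature miRNA.

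**Figure D1:**
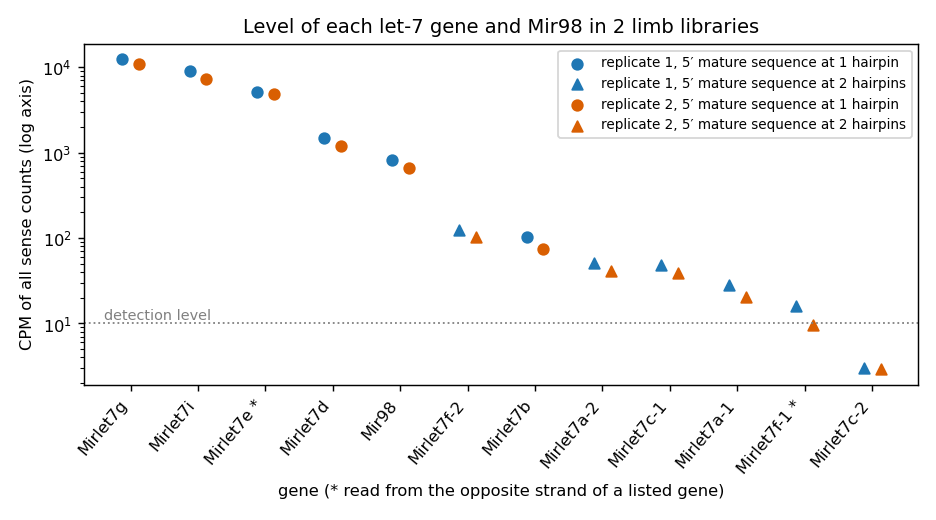
Level of the 12 loci in CPM of all sense counts (log axis), 1 point per gene and library (blue for replicate 1, orange for replicate 2), with circles for genes whose 5′ mature sequence occurs at 1 annotated hairpin and triangles for those where it occurs at 2. The circles lie at 657 CPM or more except Mirlet7b, and the triangles lie between 2.89 and 125 CPM; the dotted line is the detection level of 10 CPM.

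The low genes were largely those whose mature sequence has a second copy. Of 2202 GENCODE M21 miRNA hairpins, 2 hold let-7a-5p, 2 hold let-7c-5p and 2 hold let-7f-5p, whereas each of the other 6 sequences occurs in 1. The 6 loci with a second copy held 801 counts in replicate 1 and 746 in replicate 2, between 9 and 368 per gene. The 6 with a single copy held 85612 and 86724, between 257 and 38206 per gene. The second group is thus 99.1% of the 12 loci's counts in each library. The groups overlap at Mirlet7b, whose mature sequence occurs at 1 hairpin and which lay below Mirlet7f-2 in both libraries. A read of let-7a-5p fits both its loci and can be assigned to neither, so these counts give no level for let-7a, let-7c or let-7f and no order between them and let-7g. How many of the multimapping reads are let-7 was not tested. Only exact copies were searched. Let-7e-5p lies 1 base from let-7a-5p, and let-7b-5p lies 1 base from let-7c-5p. How reads with a mismatch were assigned is not given, so the counts of single-copy loci may be affected too.

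The 3′ arm, which can tell such loci apart, is itself shared at 2 of them. Mirlet7a-1 and Mirlet7c-2 have an identical 3′ mature sequence, shown because both arms of these hairpins then occur elsewhere.
3′ mature sequence of Mirlet7a-1 and Mirlet7c-2: cuauacaaucuacugucuuucc
3′ mature sequence of Mirlet7a-2: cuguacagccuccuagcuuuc
3′ mature sequence of Mirlet7c-1: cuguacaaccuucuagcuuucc

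The latter 2 sequences, like the 3′ mature sequences of all other members, occur at 1 hairpin. Mirlet7c-1 had 144 and 135 counts against 9 and 10 for Mirlet7c-2, and Mirlet7a-2 had 150 and 143 against 83 and 71 for Mirlet7a-1. Of all stretches of 20 nt in each hairpin, 12 of 75 in Mirlet7a-1 and 11 of 76 in Mirlet7c-2 recur in another miRNA hairpin. The numbers were 6 of 77 for Mirlet7a-2, 6 of 75 for Mirlet7c-1, 4 of 70 for Mirlet7f-1 and 3 of 64 for Mirlet7f-2. No such stretch recurs for Mirlet7b, Mirlet7d, Mirlet7e, Mirlet7g, Mirlet7i or Mir98.

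The members also differ in the loop region that Lin28 contacts. The motif GGAG was searched on the sense strand between the end of the 5′ mature sequence and the start of the 3′ one. It occurs in 9 of the 12 hairpins, and in 58 of 644 RefSeq mouse hairpins with both arms annotated (9.01%), a set that includes let-7 hairpins. Anywhere in the hairpin it occurs in 44.5% of 1005. In all 9 it ends 3 or 4 nt before the 3′ mature sequence. It is absent from this window in Mirlet7b, Mirlet7c-2 and Mir98. The member with the most assigned reads is shown beside 2 of those without it, with the motif in capitals.
Mirlet7g hairpin, chr9:106178840-106178927, plus strand: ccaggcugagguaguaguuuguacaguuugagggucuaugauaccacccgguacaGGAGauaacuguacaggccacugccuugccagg
Mirlet7b hairpin, chr15:85707319-85707403, plus strand: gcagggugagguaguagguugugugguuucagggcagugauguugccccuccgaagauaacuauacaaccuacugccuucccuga
Mir98 hairpin, chrX:151913214-151913321, plus strand: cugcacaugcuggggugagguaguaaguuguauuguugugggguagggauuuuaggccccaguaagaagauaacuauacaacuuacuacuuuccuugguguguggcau

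Hairpins with the motif spanned nearly the whole range of assigned counts, from Mirlet7g down to Mirlet7f-1. The low end of that range holds loci whose 5′ mature sequence has a second copy, for which these counts give no level. Among loci with a single copy, those with the motif (Mirlet7g, Mirlet7i, Mirlet7e and Mirlet7d) lay at 1196 CPM or more. Hairpins without the motif had 74.3 to 103 CPM (Mirlet7b), 2.89 to 3.05 CPM (Mirlet7c-2, which has a second copy) and 657 to 810 CPM (Mir98). Whether level goes with the motif was not tested. A match of these letters is a description and does not show that Lin28 bound.

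Let-7 genes were counted unequally even where annotation places them in one cluster, so that they could be cut from one primary transcript. Ratios were taken within a library and are given as log2 mean ± SD (n = 2), with no test, since an exact sign-flip test of 2 libraries cannot go below p = 0.5. On chromosome 13, where Mirlet7a-1, Mirlet7f-1 and Mirlet7d overlap exons of the noncoding gene 6720427I07Rik within a few kb, the log2 ratio of Mirlet7a-1 to Mirlet7d was −5.79 ± 0.09, or 55.3-fold fewer counts. That of Mirlet7d to Mirlet7f-1 was 6.74 ± 0.29. In Huwe1, Mir98 stood 2.69 ± 0.01 log2 units above Mirlet7f-2, with a counting error of 0.08 in each library that exceeds the SD. On chromosome 15, Mirlet7b stood 4.81 ± 0.27 above Mirlet7c-2, 621 nt away. In each of these 3 clusters the gene with the single-copy sequence had the higher count.

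The other 3 clusters pair a let-7 gene with relatives of lin-4 (the Mir125 family) and of Mir100, an arrangement conserved in animals. On chromosome 17, Mirlet7e lies 94 nt from Mir99b and 367 nt from Mir125a, and had 5.71-fold and 1.27-fold fewer counts than these. The log2 ratio of Mirlet7e was −2.51 ± 0.05 to Mir99b (84432 and 99562 counts) and −0.35 ± 0.03 to Mir125a (19030 and 21875 counts). On chromosome 16, in an intron of Mir99ahg, Mirlet7c-1 stood at −9.29 ± 0.33 to Mir99a (76831 and 100040 counts) and at −3.24 ± 0.34 to Mir125b-2. On chromosome 9, Mirlet7a-2 stood at −7.44 ± 0.29 to Mir100 (22659 and 28704 counts) and at −5.52 ± 0.20 to Mir125b-1. The ratios of Mirlet7c-1 and Mirlet7a-2 are of reads that fit 1 locus, and miR-125b-5p, at both Mir125b loci, is affected in the same way. Mirlet7e and its partners Mir99b and Mir125a each have mature sequences at 1 hairpin, by exact match. Let-7e-5p still differs from let-7a-5p by only 1 base.

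Between the libraries, 6 of the 10 listed let-7 genes were lower in replicate 2 beyond counting error, by 1.13-fold to 1.39-fold. All 10 listed members had a negative log2 ratio of replicate 2 over replicate 1 after TMM scaling (a trimmed mean that matches library sizes). The 6 passed the two-sided exact binomial test with Benjamini-Hochberg adjustment over 422 tested genes. No member passed in the other direction. Over all tested genes 11.8% were called lower, and 50.2% had a negative ratio. Many of these genes had few counts. In a fit of the genes with 100 or more counts in sum, 52 of 279 were called lower and 44 higher. Of the 9 members in that fit, 6 were called lower. The median log2 ratio was −0.32 over the 10 members and 0.00 over all tested genes. Replicate 2 had 1.17 times the sense counts of replicate 1, and yet 8 of the 10 members had fewer raw counts there, which held for 17.3% of all tested genes. That the family was lower in replicate 2 was known when it was chosen, so these counts describe it and support nothing further.

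Among the members with many counts, Mirlet7i fell from 9122 to 7188 CPM, a log2 ratio of −0.36 with a counting standard error (SE) of 0.01, or 1.28-fold (adjusted p = 1.89e-171, exact binomial test). Among 201 genes at a mean of 100 CPM or more, 3 had a lower ratio. Mirlet7g fell less, from 12327 to 11045 CPM, a log2 ratio of −0.17 (SE 0.01), or 1.13-fold (adjusted p = 3.48e-57, exact binomial test). Mirlet7d fell by 1.26-fold, at −0.33 (SE 0.03), and Mir98 by 1.25-fold, at −0.32 (SE 0.04), with adjusted p = 5.71e-25 and 1.15e-12 by the same exact test. Mirlet7b fell by 1.39-fold, at −0.48 (SE 0.12, adjusted p = 6.54e-04 by the exact test), and Mirlet7f-2 by 1.23-fold, at −0.30 (SE 0.11, adjusted p = 0.029 by the exact test). Mirlet7a-1, Mirlet7a-2 and Mirlet7c-1 had ratios of −0.46, −0.31 and −0.33 and did not pass, with 71 to 150 counts per library. Mirlet7c-2, at −0.10 with a 95% counting interval from −1.36 to 1.17, was too shallow to show a difference of that size.

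Mirlet7e differed from this range. In a fit with both opposite-strand genes as rows of their own, it had a log2 ratio of −0.07 (SE 0.02), 1.05-fold, and passed at adjusted p = 6.71e-05 by the exact binomial test. Mirlet7f-1 had −0.74 (SE 0.33) and did not pass. The test covers counting error, and when that error was widened to the overdispersion of the median gene, 4 of the 10 listed members passed (Mirlet7g, Mirlet7i, Mirlet7d and Mir98). With the mean overdispersion over genes, 2 passed (Mirlet7g and Mirlet7i).

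**Figure D2:**
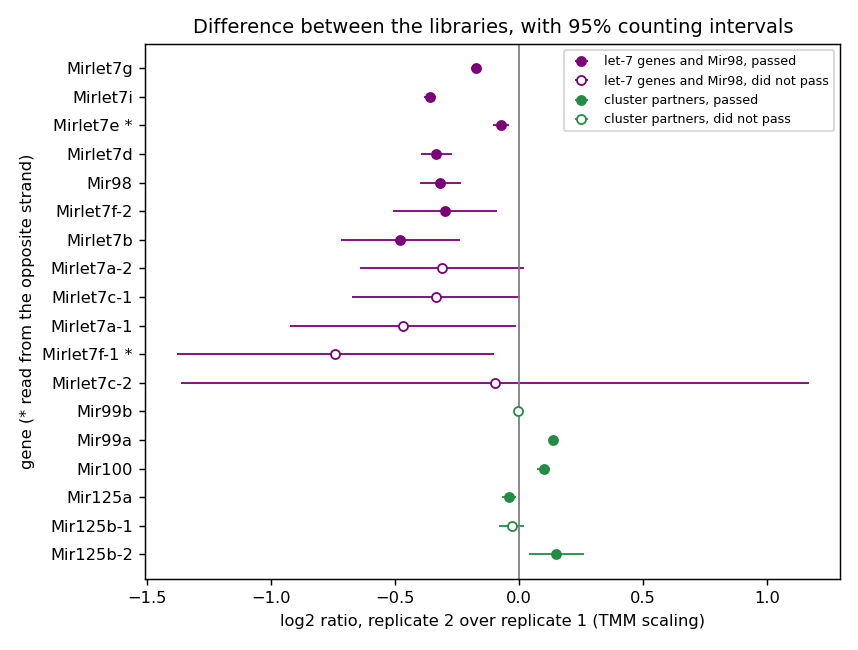
Log2 ratio of replicate 2 over replicate 1 (TMM scaling) for the 12 let-7 loci and 6 cluster partners, with bars for 95% counting intervals and filled points for genes that passed the exact binomial test. The let-7 ratios lie between −0.74 and −0.07, and those of the partners between −0.04 and 0.15.

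**Figure D3:**
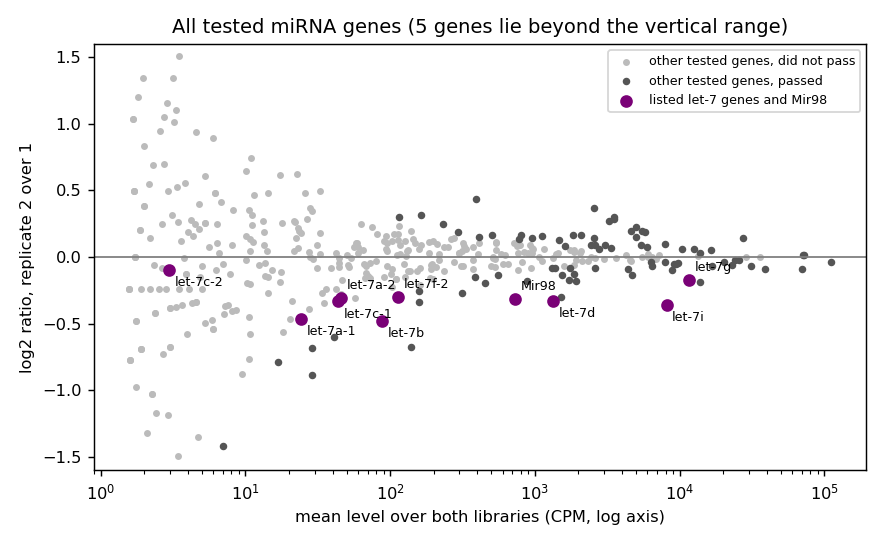
Log2 ratio of replicate 2 over replicate 1 against mean level in CPM (log axis) for all 422 tested genes, with the 10 listed members in purple, other genes that passed in dark grey and the rest in light grey; 5 genes lie beyond the vertical range. The members lie between −0.48 and −0.10, below the zero line at every level from 3 to 11686 CPM.

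Partners of let-7 in its clusters were called higher more often than lower. Of the 6, Mir99a, Mir100 and Mir125b-2 rose in replicate 2, with log2 ratios of 0.14, 0.10 and 0.15. Over all tested genes 9.48% were called higher, and 44 of 279 in the fit of genes with 100 or more counts. Mir125a fell, at −0.04, and Mir99b and Mir125b-1 did not pass, at 0.00 and −0.03. The median over the 6 was 0.05. Within clusters, the log2 ratio of Mirlet7c-1 to Mir99a was −9.05 in replicate 1 and −9.53 in replicate 2, a change of −0.47 with a 95% counting interval from −0.81 to −0.14. That of Mirlet7c-1 to Mir125b-2 changed by −0.49 (−0.84 to −0.13), and that of Mirlet7a-2 to Mir100 by −0.41 (−0.74 to −0.08). Mirlet7e to Mir99b changed by −0.07 (−0.11 to −0.04), and Mirlet7e to Mir125a by −0.04 (−0.08 to 0.00). The interval of Mirlet7a-2 to Mir125b-1, a change of −0.28, ran from −0.61 to 0.05. These changes do not depend on how the libraries are scaled. The intervals of all pairs, here and below, hold counting error alone and were not adjusted for the number of pairs. They were not widened for overdispersion, which was 2.64 for the median tested gene. Neither Mirlet7c-1 nor Mirlet7a-2 passed its own test between the libraries.

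Between members of one cluster, the interval of the change held 0. Mir98 to Mirlet7f-2 changed by −0.02 (−0.25 to 0.21), Mirlet7a-1 to Mirlet7d by −0.13 (−0.59 to 0.33), and Mirlet7b to Mirlet7c-2 by −0.38 (−1.67 to 0.91). Mirlet7d to Mirlet7f-1 changed by 0.41 (−0.23 to 1.05), and Mirlet7a-1 to Mirlet7f-1 by 0.28 (−0.50 to 1.06). Such wide intervals do not show that the ratios were equal. For 4 pairs of separate loci, each written with the gene that fell less first, the intervals lay above 0. The log2 ratio of Mirlet7g to Mirlet7i was 0.43 in replicate 1 and 0.62 in replicate 2, a change of 0.19 (0.15 to 0.22). Mirlet7e rose relative to Mirlet7i by 0.28 (0.24 to 0.32), to Mirlet7d by 0.25 (0.19 to 0.32) and to Mirlet7g by 0.09 (0.06 to 0.13). These 4 pairs were chosen after the values were seen, and other pairs of separate loci were not compared. Not all separate loci differed in this way, as Mirlet7d and Mir98 had log2 ratios between the libraries of −0.33 and −0.32.

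**Figure D4:**
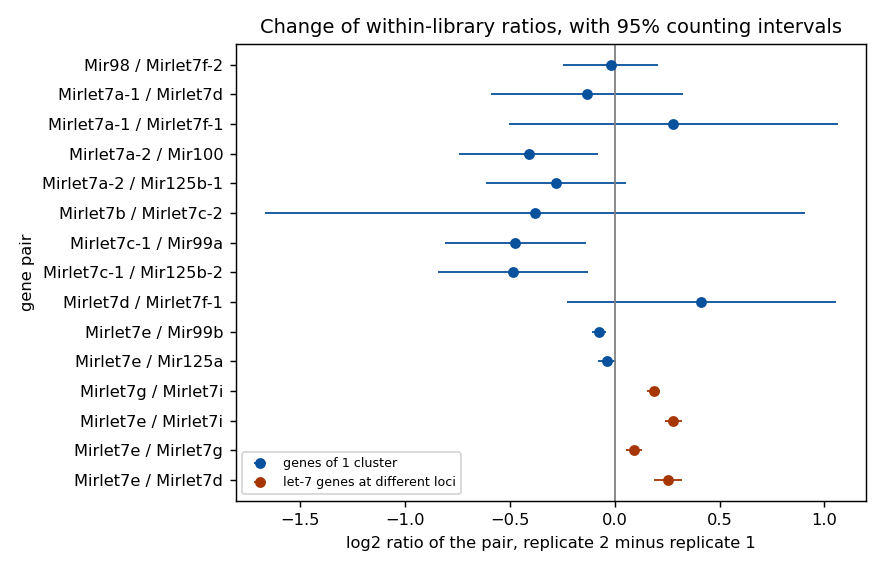
Change of the within-library log2 ratio of each gene pair, replicate 2 minus replicate 1, with bars for 95% counting intervals, blue for genes of 1 cluster and brown for let-7 genes at different loci. Pairs of Mirlet7c-1 or Mirlet7a-2 with a partner lie between −0.49 and −0.28. The pairs of separate let-7 loci, chosen after the values were seen, lie between 0.09 and 0.28.

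Markers of several cell types moved beside the let-7 genes. Of the 10 epithelial markers 7 rose in replicate 2 and 0 fell, with a median log2 ratio of 0.14, where 9.48% of all tested genes were called higher. Of the 6 mesenchyme and cartilage markers 4 fell and 0 rose, where 11.8% of all tested genes were called lower. Their median was −0.14, with summed levels of 58083 and 53968 CPM. In the fit of genes with 100 or more counts, 44 of 279 were called higher and 52 lower. Of the 6 limb bud markers 2 fell and 1 rose, with a median of −0.04, and the endothelial marker Mir126a fell, at −0.02. Of the 3 erythroid markers 1 rose and 0 fell, with summed levels of 380 and 490 CPM. Yet 2 of these 3 had a negative ratio, and the erythroid median was −0.27. No listed white blood cell, skeletal muscle or neuronal marker passed. The part of all these markers in the let-7 difference was not tested. Of 3 other miRNAs whose precursors are known to bind Lin28, Mir143 rose with a log2 ratio of 0.19, Mir200c rose with 0.13, and Mir107 fell with −0.08.

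Genes outside the family were ranked by how near their ratio lay to the members' median. The 5 genes at a mean of 100 CPM or more with the log2 ratio nearest to −0.32, over these 2 libraries, were Mir6236 (−0.34), Mir199b (−0.30), Mir199a-2 (−0.27), Mir187 (−0.26) and Mir539 (−0.22). The first 4 passed the exact binomial test as lower, and Mir539 did not (adjusted p = 0.177). The 3′ mature sequence of Mir199b occurs at 3 hairpins, and those of Mir199a-2 at 2 or 3, so reads of these arms fit more than 1 locus. Copies of a 5′ mature sequence of Mir199b were not searched. Both genes are among the mesenchyme and cartilage markers.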

How the data were processed

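The authors deposited read counts for each miRNA gene, not normalized, with 1 file per library. Per the notes deposited with each sample, the assembly was mm10 and the annotation GENCODE M4; the aligner and counter: not given in the sources used here. Every file has no header, 4 lines for reads outside genes, and 3 count columns for 1973 genes, of which the first is the sum of the others for every gene. The second holds nearly all counts and was taken as sense; the third was taken as the opposite strand. A gene is a hairpin, so its arms are counted together.

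Of the 1973 genes, 1894 matched GENCODE M21 symbols by identifier without version, which supplied coordinates (1-based, mm10) and hosts; the other 79 held 4 sense counts. RefSeq (GRCm38.p6) supplied mature and hairpin sequences for all 12 loci, and GENCODE hairpins the search for copies. Lines for reads outside genes stayed out of library sizes.

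Genes with 10 or more counts in sum were compared between the libraries by a two-sided exact binomial test on TMM-scaled library sizes (edgeR 4.0.16, R 4.3.3), adjusted by Benjamini-Hochberg at 0.05 over all tested genes, since 1 group leaves edgeR's quasi-likelihood test no contrast. Log2 ratios used a prior count of 0.5, and intervals are 95% counting intervals. The test was checked on simulated counts. DESeq2 1.42.0 size factors, total counts, other filters, prior counts, columns, denominators and error models were alternatives. Other steps used scipy 1.17.1 and pandas 2.3.3 under Python 3.11.15.

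All members, their listed miRNA neighbours within 60 kb on the same strand, 3 Lin28-bound miRNAs, the cell type markers and the 5 genes of nearest ratio were named. Members and lists were chosen with earlier results of these data known.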

Additional observations from a re-analysis of the deposited data

Results flagged for a closer look

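The opposite-strand column, which the shares of the listed members and the test of the listed genes did not use, held counts above the 3 that a count of 0 allows at 3 genes of the family's loci. At Gm25927, across from Mirlet7e, there were 15171 counts in replicate 1 and 16987 in replicate 2, and 0 on the own strand of Gm25927 in both. At Gm24111, across from Mirlet7f-1, there were 47 and 33, and again 0 on its own strand. At Mirlet7b there were 4 opposite-strand counts in replicate 1 and 2 in replicate 2, beside 303 and 257 on its own strand. The other 9 listed members had 0 there in both libraries.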

How the results depend on the processing

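The share of the listed members, 2.22% ± 0.26 of sense counts (SD, n = 2), came to 1.93% of mapped reads counted once and to 1.01% of all reads. It was 2.71% with Mirlet7e, 2.71% with Mirlet7e and Mirlet7f-1, and 0.240% without Mirlet7g and Mirlet7i. Members at 100 CPM in both libraries numbered 5, against 9 at 10 CPM. The count of 6 members called lower became 2 with the mean overdispersion, when 7 genes in all were lower and 5 higher, against 50 and 40; with that of the median gene all genes gave 27 and 21. It stayed between 4 and 7 under the other alternatives, among them the scalings, the filters and the column of both strands. The 6 calls were of the same genes under total counts and DESeq2 size factors, and Mirlet7f-2 was lost without a filter. No sign reversed. The alternatives with Mirlet7f-1, the share without Mirlet7g and Mirlet7i, and the count of calls among single-copy members alone were chosen after seeing the data. No paired analysis was possible because the series holds a single group. Depth limits Mirlet7c-2 most, at 9 and 10 counts, and multimapping reads limit let-7a, let-7c and let-7f.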

Other observations

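Another 2 miRNA genes carry the let-7 seed in RefSeq but fall outside the members, which were taken by symbol. Mir1961 and Mir7k, whose mature sequences share bases 2 to 8 with let-7, had 0 sense counts in both libraries, which allows up to 1.02 CPM in replicate 1 and 0.867 CPM in replicate 2 for reads that fit these loci alone.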
